A study of Mus musculus with 461 samples.

Results

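The proteasome subunit genes were taken as every gene of the deposited TPM table (TPM is a relative abundance corrected for gene length) whose symbol reads Psma, Psmb, Psmc or Psmd followed by a number. That rule used names and no measured value, and it found 39 of 31673 genes. By role they are 7 alpha and 4 structural beta subunits of the 20S core, the 3 constitutive catalytic subunits Psmb5, Psmb6 and Psmb7, the 3 immunoproteasome subunits Psmb8, Psmb9 and Psmb10, and the tissue-restricted Psma8 and Psmb11. The 19S regulatory particle adds 6 ATPases (Psmc1 to Psmc6), 11 non-ATPase subunits and 3 assembly chaperones (Psmd5, Psmd9 and Psmd10). The 34 genes outside the immunoproteasome and tissue-restricted groups are called constitutive members here.

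The proteasome degrades proteins that carry ubiquitin chains. Its 20S core is a barrel of alpha and beta rings in which beta 1, beta 2 and beta 5 (Psmb6, Psmb7 and Psmb5) hold the active sites, and the 19S particle binds, deubiquitinates, unfolds and feeds the substrate. Interferon and immune cell types bring in Psmb9, Psmb10 and Psmb8 at the same positions, which shifts the cut peptides toward those loaded on MHC class I. Psma8 replaces Psma7 in the spermatoproteasome of the testis, and Psmb11 replaces Psmb5 in the cortical epithelium of the thymus.

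The data were single-cell RNA sequencing profiles of 461 mouse cells captured on the Fluidigm C1 system during a reprogramming course named 7F. The starting cells were OG2 transgenic mouse embryonic fibroblasts on a background that the labels give as 1/2 129SVJ, with 3/8 from C57B6 and the remaining 1/8 from CBA, and no other genotype or treatment was included. OG2 mice carry a green fluorescent reporter under Oct4 control, and the published 7F cocktail is Jdp2, Jhdm1b, Mkk6, Glis1, Nanog, Esrrb and Sall4. Fibroblasts were kept in medium with 10% serum and reprogramming cells in iCD1 medium, so medium and factors change together after day 0. Each cell is 1 sample, and a set is all cells of 1 day whose titles begin with the same prefix, b1, b2 or b3, which no label explains. Day 0 had 20 cells of b1 and 54 of b2, day 1 had 58 of b2, day 3 had 61 of b1 and 58 of b2, day 4 had 59 of b3, day 5 had 79 of b2 and day 7 had 65 of b2. A further 5 cells of b1 on day 5 and 2 on day 7 were too few for the tests. Cells held 0.319 to 7.00 M counts (M for mega) and 6270 to 12141 detected genes. The shallowest set was day 4, with a median of 0.983 M counts per cell, against 1.963 to 3.31 M in the other 7 tested sets. Only days 0 and 3 had 2 sets, and day 4 was the only day of b3, so that day and prefix cannot be told apart there.

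The labelled starting cell type matched most of its markers. Col1a1, a fibrillar collagen of fibroblasts, had a mean of 342 and 202 TPM in the day 0 sets and 9.88 on day 7. The 8 fibroblast markers summed to 846 TPM in b1 and 691 in b2 on day 0, and to 72.4 on day 7. In b2 of day 0, 2 of the 8 were below 1 TPM. The 4 epithelial markers summed to 224 TPM in b1 and 110 in b2 on day 0, and to 529 on day 7. The summed TPM of 6 pluripotency markers ran the other way, from 0.248 and 0.508 on day 0 to 4334 on day 5 and 9194 on day 7. The 8 leukocyte markers, which would accompany immunoproteasome expression in blood cells, summed to 6.23 to 51.6 TPM, with 4 to 7 of the 8 below 1 TPM in each set. Ptprc, which defines leukocytes, was at 0 in 5 of the 8 sets and reached 0.151 TPM at most.

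Promoter windows of 2 constitutive catalytic genes and 2 immunoproteasome genes are shown as examples. Psmb9 had a window that is not shown, and Psmb7 had none. Whether these sequences bear on the levels reported here was not tested. Each is the 250 bases before the RefSeq transcription start on GRCm38.p6, read 5′ to 3′ on the gene's strand. Psmb5 lies at chr14:54617996-54618245 (minus strand), Psmb6 at chr11:70525107-70525356 (plus), Psmb8 at chr17:34197945-34198194 (plus) and Psmb10 at chr8:105938393-105938642 (minus). Capitals mark matches to the antioxidant response element core, the motif bound by Nfe2l1 and Nfe2l2.
Psmb5: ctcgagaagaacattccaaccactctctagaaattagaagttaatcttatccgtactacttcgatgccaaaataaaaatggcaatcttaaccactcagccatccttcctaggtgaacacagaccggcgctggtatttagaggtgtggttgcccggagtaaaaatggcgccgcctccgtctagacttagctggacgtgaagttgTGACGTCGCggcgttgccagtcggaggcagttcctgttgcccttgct
Psmb6: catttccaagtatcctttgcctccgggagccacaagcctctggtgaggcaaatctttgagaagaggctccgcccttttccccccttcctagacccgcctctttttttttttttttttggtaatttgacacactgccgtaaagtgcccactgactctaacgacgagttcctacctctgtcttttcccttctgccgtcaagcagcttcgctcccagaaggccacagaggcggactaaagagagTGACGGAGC
Psmb8: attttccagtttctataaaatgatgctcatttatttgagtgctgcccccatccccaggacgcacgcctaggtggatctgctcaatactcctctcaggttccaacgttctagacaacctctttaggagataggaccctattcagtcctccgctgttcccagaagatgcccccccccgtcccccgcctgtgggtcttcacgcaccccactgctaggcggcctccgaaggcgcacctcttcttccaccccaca
Psmb10: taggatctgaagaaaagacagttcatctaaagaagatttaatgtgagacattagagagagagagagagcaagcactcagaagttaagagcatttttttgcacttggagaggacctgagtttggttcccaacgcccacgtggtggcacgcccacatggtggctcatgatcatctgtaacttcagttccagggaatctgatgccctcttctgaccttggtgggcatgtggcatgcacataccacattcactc

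RefSeq promoter windows were used for 32 of the 39 members, 28 of them constitutive. The search took no member on chromosome 18, where Psma8 lies. The antioxidant response element core, searched as TGACNNNGC on both strands, was in 5 of those 28 windows (17.9%), and in 10.2% of all 32851 mouse promoter windows of the same length. The 5 were Psmb5 (TGACGTCGC at bases -47 to -39 from the start), Psmb6 (TGACGGAGC at -9 to -1), Psmc6, Psmd9 and Psmd12. None of the 3 immunoproteasome windows held that core. The interferon-stimulated response element core, a pair of GAAA runs with 2 bases of any kind between them, was in 3 of 28 constitutive windows (Psmb3, Psmd4 and Psmd9), in 0 of the 3 immunoproteasome windows, and in 2.98% of all windows. The GC box GGGCGG stood in 17 of 28 constitutive windows (60.7%) and in 32.7% of all, and CCAAT in 9 of 28 (32.1%) against 33.9%. The 4 motifs were matched exactly and can overlap one another, and a match is a match of letters only. The Psmb8 and Psmb9 windows lie inside the spans that GENCODE vM21 gives those genes, chr17:34197721-34201454 and chr17:34181987-34187764. Bases before the outermost annotated starts of Psmb8 and Psmb9 were therefore not searched, and absence of a motif there cannot be read. Some constitutive windows, such as that of Psmd9, also lie inside the annotated gene.

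The constitutive members were abundant in nearly every cell. On day 0 Psma3, the alpha 7 subunit, had the highest level at 1242 ± 292 TPM (mean ± SD of 2 sets), followed by Psmb2 (beta 4) at 1009 ± 216 and Psmb6 at 960.5 ± 318. These neighbours in the order do not differ beyond their spread. Subunits of the core stood above those of the 19S: the 14 constitutive core genes summed to 7786 and 10760.0 TPM on day 0, and the 20 genes of the 19S to 3499 and 4582. The lowest constitutive members were Psmd3, a scaffold subunit of the 19S lid, at 25.3 ± 9.26 TPM, and the chaperone Psmd9 at 41.7 ± 4.64. Counting a TPM of 1 or more as detection, Psma3, Psma5, Psma6 and Psma7 were found in all 461 cells, and the least often found constitutive member was Psmd9, in 357. The lowest of all 39 were Psma8 at 0.0602 ± 0.0852 and Psmb11 at 0.35 ± 0.404 TPM.

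Summed over the 34 constitutive members, the mean per cell was 11286 TPM in b1 and 15342 in b2 on day 0, 11148 on day 1, 10637 in b1 and 10859 in b2 on day 3, 10358 on day 4, 13995 on day 5 and 15443 on day 7. The sums of days 1, 3 and 4 lay below both day 0 sets, and those of days 5 and 7 lay inside or just above the day 0 range. The day 0 sets differed from each other by more than b1 of day 0 differed from the day 3 sets: the mean was 13314 ± 2868 on day 0 and 10748 ± 157 on day 3 (SD, n = 2). Within b2 alone, day 1 had 0.727 times the day 0 sum, day 5 0.912 times and day 7 1.01 times. On normalised counts (edgeR) without b1 of day 0, the median log2 fold changes of the 34 were -0.33, -0.36 and -0.41 on those days. The day 7 level thus matched b2 of day 0 in summed TPM, but not on that scale. The fraction of all TPM that went to these 34 genes was 1.04% on day 4 and 1.55% on day 7. Spread between cells was widest in b2 of day 3, where the mean log2(TPM + 1) over the 34 genes had an SD of 1.21, against 0.366 in b2 of day 0. Across the cells of a set, that score and the total count had Spearman correlations from -0.164 to 0.657 over the 8 sets, which is a description across cells that share a library preparation.

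**Figure D1:**
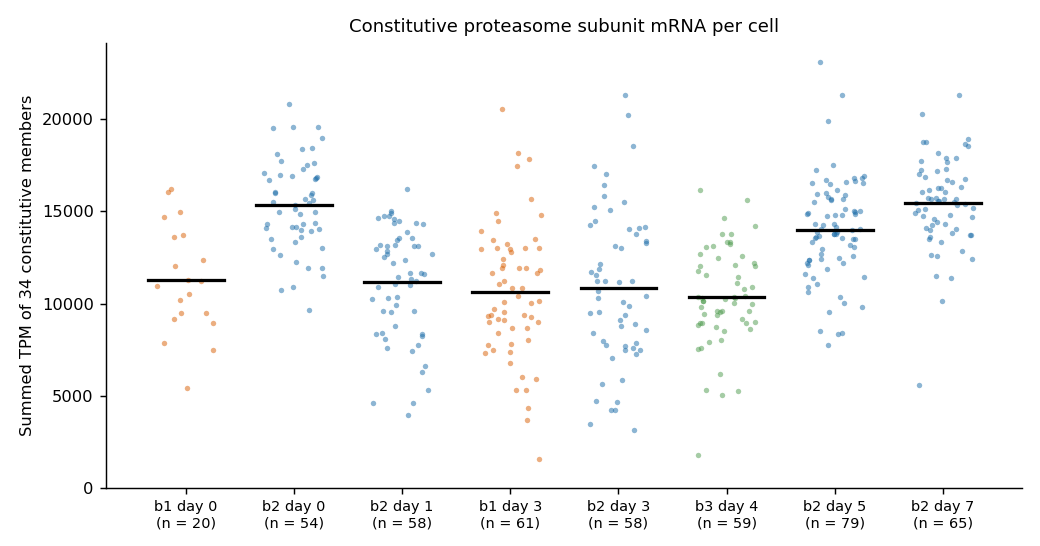
Summed TPM of the 34 constitutive proteasome members in each cell (points, coloured by title prefix) for the 8 tested sets, with the set mean as a bar. Set means run from 10358 TPM on day 4 to 15443 on day 7, and the cells of all sets overlap.

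No proteasome member passed the main test, edgeR's quasi-likelihood F test on summed counts with Benjamini-Hochberg adjusted p under 0.05 over 22378 genes, in any comparison with day 0. On day 1, 0 of 39 members were called, against 1.18% of all genes, and 0 had an unadjusted p under 0.05 (7.13% of genes). DESeq2 and limma, run as alternatives, also called 0 members there (4.37% and 0.0% of their genes). On day 3, where 2 sets stand against 2, 0 members were called against 3.14% of genes, 5 (12.8%) had an unadjusted p under 0.05 (Psmd14, Psmb2, Psmc4, Psmc6 and Psma7) as did 11.6% of genes, and DESeq2 and limma called 0 (8.53% and 0.0%). On day 4, 0 were called against 3.03% of genes, 4 had an unadjusted p under 0.05 (Psmb2, Psmd4, Psmb6 and Psmc4) against 10.3% of genes, and DESeq2 and limma again called 0 (7.43% and 0.0%). On day 5, 0 were called against 4.73%, 1 had an unadjusted p under 0.05 (Psma8, against 13.7% of genes), and the other tools called 0 (12.4% and 0.0%). On day 7, 0 were called against 6.6% of genes and 1 had an unadjusted p under 0.05 (Psma8, against 16.3% of genes). There DESeq2 called 1 member, Psmb8, against 16.7% of genes, and limma called another, Psma8, against 2.19%. Neither the share of members called nor the share under an unadjusted 0.05 was clearly above that of all genes.

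Most constitutive members had negative log2 fold changes on days 3 and 4, and none passed the test. The median log2 fold change of the 34 was -0.45 on day 3, with 32 below 0, and -0.63 on day 4, with 33 below 0. Over the 4860 genes at least as abundant as the lowest of them, the medians were -0.15 and -0.26, and over all genes tested 0.11 and 0.00. Of those 4860 genes, 2906 were below 0 on day 3 and 3207 on day 4. Of all 22378 genes tested, 9465 and 10341 were. Without b2 of day 0 the day 3 and day 4 medians of the 34 were -0.10 and -0.33. Without b1 of day 0 they were -0.77 and -0.97, so their size depends largely on which day 0 set is used. Within b1, the mean TPM of 17 of the 34 was lower on day 3 than on day 0. It was lower for 31.7% of all genes tested and 41.1% of the 3890 genes as abundant in TPM. The median ratio in b1 was 0.997, and 1.087 over the genes as abundant. Within b2 the mean TPM was lower for 30 of the 34, against 33% of all genes tested and 46% of the genes as abundant. The median ratio in b2 was 0.721, and 1.055 over the genes as abundant. The difference between prefixes was not tested. With every cell thinned to equal depth, the medians were -0.46 on day 3 and -0.46 on day 4. With limma on the mean log2(TPM + 1) per set, where each cell weighs the same, the medians were -0.54 on day 3 and -0.12 on day 4. On days 1, 5 and 7, which are all of b2 here, the medians were -0.09, -0.11 and -0.10. Without b2 of day 0 they were 0.20, 0.22 and 0.25. Without b1 of day 0, which sets b2 against b2, they were -0.33, -0.36 and -0.41. The comparisons share their day 0 sets, so they are not independent of each other.

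**Figure D2:**
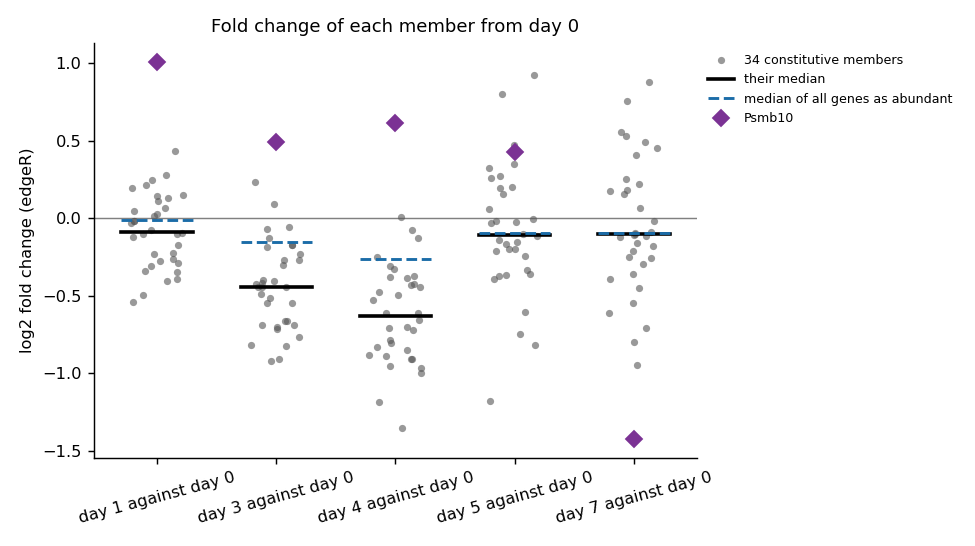
Log2 fold change from day 0 (edgeR, vertical axis) of each of the 34 constitutive members (grey points) on 5 later days, with their median (black bar), the median of all genes as abundant (dashed bar) and Psmb10 (diamond). The black bars stand at -0.45 and -0.63 on days 3 and 4, and Psmb10 goes from 1.01 on day 1 to -1.42 on day 7.

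Day 3 is the one day on which overlap between sets can be read. In CPM (the counts of a set per unit of its normalised library size), both day 3 sums of 17 members, all of them constitutive, lay below both day 0 sums, which also held for 14.9% of all genes tested and 30.2% of the genes as abundant. The 2 members Psmb8 and the 19S lid subunit Psmd13 lay above in both, against 21.3% of all genes tested. The 17 were 5 of 7 alpha genes (Psma1, Psma2, Psma3, Psma6 and Psma7), 4 core beta genes (Psmb1, Psmb2, Psmb3 and Psmb6), 4 of 6 ATPases (Psmc1, Psmc3, Psmc4 and Psmc6) and 4 non-ATPase genes (Psmd1, Psmd4, Psmd11 and Psmd14). On the TPM scale 14 of these 17 kept that order, against 10.2% of all genes tested and 18.8% of the genes as abundant, while Psmb3, Psmc3 and Psmd4 overlapped. In TPM the members above in both were Psmb8 and Psmb10 (against 29.3% of all genes), and Psmd13 overlapped.

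By role, the lowest day 3 and day 4 log2 fold changes among structural core subunits belonged to Psmb2, the beta 4 subunit. It was at 857 TPM in b1 and 1162 in b2 on day 0, 717 on day 1, 604 in b1 and 645 in b2 on day 3, 544 on day 4, 713 on day 5 and 879 on day 7. Both day 0 sets lay above the 3 sets of days 3 and 4. Its log2 fold change was -0.91 ± 0.38 on day 3 (adjusted p = 0.232) and -1.35 ± 0.49 on day 4 (adjusted p = 0.129, edgeR). After a log2 fold change, ± gives a standard error derived from the edgeR F statistic, and not an SD between sets. Psma7, the alpha 4 subunit that Psma8 replaces in germ cells, was at 638 TPM in b1 and 853 in b2 on day 0, 532 on day 1, 467 in b1 and 550.2 in b2 on day 3, 584 on day 4, 764 on day 5 and 865 on day 7. Its day 3 sets lay below both day 0 sets, with a log2 fold change of -0.76 ± 0.38 (adjusted p = 0.403). The other alpha and structural beta genes had day 3 log2 fold changes between -0.70 for Psma6 and -0.17 for Psmb4. Psmb3, the beta 3 subunit, had the highest day 7 level of the 4 structural beta genes, with 1290.4 TPM on day 7 against 522 and 868 on day 0.

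In the 19S particle, Psmd14 is the deubiquitinase that removes ubiquitin chains from substrates as they enter. Its level was 379 TPM in b1 and 538 in b2 on day 0, 352 on day 1, 315 in b1 and 292 in b2 on day 3, 332 on day 4, 399 on day 5 and 425 on day 7, so all later sets but those of days 5 and 7 lay below both day 0 sets. The day 3 log2 fold change was -0.92 ± 0.38 (adjusted p = 0.227). Psmd4, the ubiquitin receptor Rpn10, was at 171 TPM in b1 and 267 in b2 on day 0, 171 on day 1, 177 in b1 and 189.8 in b2 on day 3, 135 on day 4, 244 on day 5 and 261 on day 7. Only its day 4 value lay well below the day 0 range, with a log2 fold change of -1.19 ± 0.52 (adjusted p = 0.328). All 6 ATPases, which unfold the substrate, had negative values on days 3 and 4, and the lowest were Psmc4 (-0.82 ± 0.38 on day 3, adjusted p = 0.348, and -0.97 ± 0.49 on day 4, adjusted p = 0.475) and Psmc6 (-0.82 ± 0.38 on day 3, adjusted p = 0.352). Psmb2, Psma7, Psmb3, Psmd14, Psmd4, Psmc4 and Psmc6 were named after their values were seen. Leaving out b1 of day 0 brought Psmb2 and Psmd14 past the threshold on day 3 in edgeR (adjusted p = 0.0407 and 0.0154), and Psmb2 and Psmd4 on day 4 (adjusted p = 0.011 and 0.0411). In that fit the lone day 0 set is assumed to vary like the others. Leaving out b2 of day 0 instead gave 0 members with an unadjusted p under 0.05 on day 3, and log2 fold changes of -0.46 for Psmd14 and -0.64 for Psmb2 on day 3 and -0.72 for Psmd4 on day 4.

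Psmd11 (Rpn6) holds the 19S particle to the core and is known for high levels in human embryonic stem cells. Here it was at 181 TPM in b1 and 234 in b2 on day 0, 165 on day 1, 172 in b1 and 169 in b2 on day 3, 169 on day 4, 237 on day 5 and 302 on day 7. The day 7 set was the highest of the 8 and the day 5 set lay just above the upper day 0 set. The day 7 log2 fold change of 0.45 ± 0.48 did not pass the test (adjusted p = 0.747), and its 95% interval ran from -0.49 to 1.40. Day 7 was the highest of the 8 sets in TPM for 12 of the 34 constitutive members, against 19.7% of all genes tested and 24.9% of the genes as abundant. The 12 were Psmd11, Psma1, Psma5, Psma7, Psmb3, Psmb6, Psmc5, Psmd1, Psmd2, Psmd3, Psmd5 and Psmd12. In CPM, day 7 was not the highest set for Psma5, Psma7, Psmb6, Psmd1 and Psmd3, and it was for the others. The few b1 cells of day 7 averaged 154.5 TPM for Psmd11. Among the assembly chaperones, Psmd10 (gankyrin) had its lowest level of the 8 sets on day 5, at 45.8 TPM. It was at 61 and 109 TPM on day 0 and 67 on day 7. The 5 further b1 cells of day 5 averaged 64.3 TPM. Psmd10 was also named after its values were seen.

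**Figure D3:**
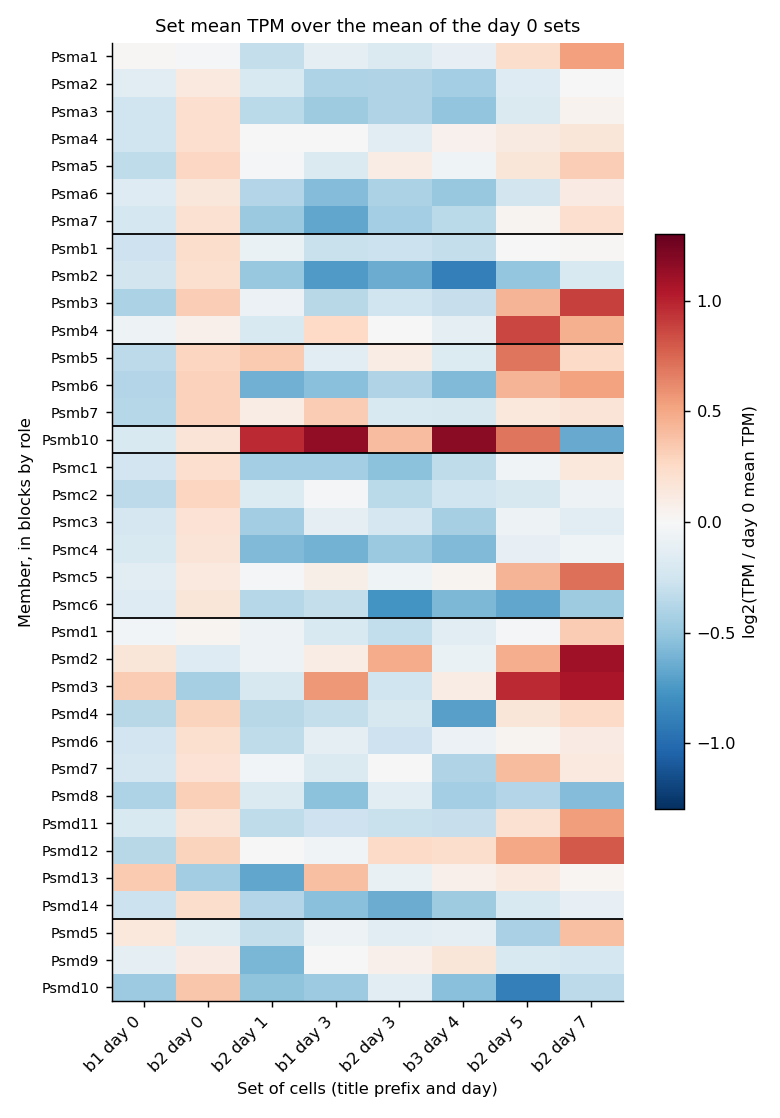
Set mean TPM of 34 constitutive members and Psmb10, as log2 of the ratio to the mean of the day 0 sets (colour), for the 8 sets (columns) and in blocks by role (rows, from the alpha ring at the top to the 19S assembly chaperones). Most rows are blue in the columns of days 1 to 4, and the Psmb10 row is red there and blue on day 7, where its level was 47.8 TPM.

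The constitutive catalytic genes kept high levels throughout. Psmb5, the chymotrypsin-like beta 5 subunit, was at 384 TPM in b1 and 589.6 in b2 on day 0, 615 on day 1, 442 in b1 and 520.1 in b2 on day 3, 431 on day 4, 789 on day 5 and 577 on day 7. Psmb6, the caspase-like beta 1 subunit, was at 736 TPM in b1 and 1185 in b2 on day 0, 624 on day 1, 659.7 in b1 and 730.0 in b2 on day 3, 645 on day 4, 1303 on day 5 and 1383 on day 7. Psmb7, the trypsin-like beta 2 subunit, was at 236 TPM in b1 and 376 in b2 on day 0, 328 on day 1, 384 in b1 and 267 in b2 on day 3, 265 on day 4, 336 on day 5 and 344 on day 7. Psmb5 lay above both day 0 sets on days 1 and 5 and Psmb6 on days 5 and 7, and the sets of days 0 and 3 overlapped for Psmb5 and Psmb7 but not for Psmb6. Log2 fold changes on day 3 were -0.27 ± 0.38, -0.69 ± 0.37 and -0.13 ± 0.39 for Psmb5, Psmb6 and Psmb7, and on day 4 -0.50 ± 0.48, -0.998 ± 0.48 and -0.61 ± 0.49. Their adjusted p-values on both days were 0.419 or more. On day 7 the values were -0.11 ± 0.47, 0.19 ± 0.45 and -0.10 ± 0.48, with adjusted p-values of 0.996, 0.942 and 1.00. The signs of Psmb5 and Psmb7 on day 3, and of all 3 on day 7, turned when 1 set was left out. Processed copies of all 3 genes are annotated in GENCODE vM21 (Psmb5-ps, Psmb6-ps and others), so reads could be shared with near-identical copies and the values carry that uncertainty.

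Psmb10, the immunoproteasome counterpart of Psmb7, had its highest levels in the middle of the course and its lowest at the end, in the tested sets. It was at 65.6 TPM in b1 and 84.5 in b2 on day 0, 147 on day 1, 167 in b1 and 99 in b2 on day 3, 169 on day 4, 121 on day 5 and 47.8 on day 7. Every set of days 1 to 5 lay above both day 0 sets, and the day 7 set lay below both. As a share of Psmb10 plus Psmb7 TPM it was 21.7% in b1 and 18.4% in b2 on day 0, 30.9% on day 1, 30.3% and 27% on day 3, 38.9% on day 4, 26.5% on day 5 and 12.2% on day 7. In CPM, where deep cells weigh more, Psmb10 was at 29.9 and 39 on day 0 and 63.7 and 33.2 on day 3, so its sums overlap on that scale. The day 0 mean share of 20.04 ± 2.38% and the day 3 mean of 28.7 ± 2.29% (SD, n = 2) come from sets that do not overlap. An exact permutation test of 2 sets against 2 cannot go below a p of 0.333, so none is given. The log2 fold changes were 1.01 ± 0.66 on day 1, 0.49 ± 0.56 on day 3, 0.62 ± 0.67 on day 4, 0.43 ± 0.67 on day 5 and -1.42 ± 0.73 on day 7, with edgeR adjusted p-values of 0.924, 0.852, 0.943, 0.933 and 0.309. Leaving out b1 of day 3 turned the day 3 value to -0.06. The 5 further b1 cells of day 5 averaged 45.2 TPM (a share of 13.5%) and the 2 of day 7 averaged 161 TPM (49.1%), so these few cells run against the b2 sets of the same days.

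**Figure D4:**
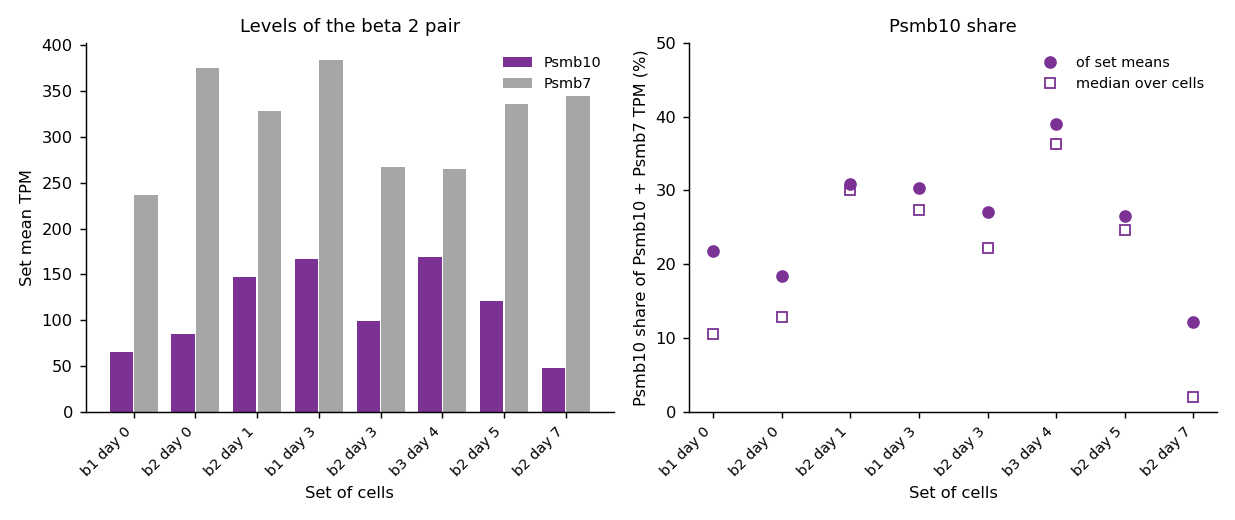
Left, set mean TPM of Psmb10 and Psmb7 in the 8 sets. Right, the Psmb10 share of their sum in percent, from set means (filled) and as the median over cells (open). The share is highest on day 4 at 38.9% and lowest on day 7 at 12.2%.

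Detection of Psmb10 in single cells was lowest on day 7 as well. It was detected in 75% of b1 and 77.8% of b2 cells on day 0, 89.7% on day 1, 93.4% and 75.9% on day 3, 96.6% on day 4, 91.1% on day 5 and 55.4% on day 7. Exact 95% binomial intervals, which cover counting error only, were 82.6 to 96.4% on day 5 and 42.5 to 67.7% on day 7. With every cell thinned to 300000 counts the shares were 65% and 66.7% on day 0, 89.7% on day 1, 88.5% and 69% on day 3, 94.9% on day 4, 86.1% on day 5 and 47.7% on day 7. The day 7 share is the lowest by both counts, and b2 of day 3 lies near the day 0 sets. Median Psmb10 over cells was 25 and 35.1 TPM on day 0, 133 on day 1, 106 on day 5 and 7.04 on day 7. Psmb10 exceeded Psmb7 in 13 of 59 cells on day 4 and in 3 of 65 on day 7. Across cells within a set, Spearman's correlation of Psmb10 with Pou5f1 ran from -0.193 to 0.191 and with Psmb8 from -0.227 to 0.098 over the 8 sets of 20 to 79 cells. With B2m it ran from -0.447 to 0.072 and with Col1a1 from -0.41 to 0.0516, below 0 in 7 of the 8 sets. The values with Pou5f1 and Psmb8 are weak, and Psmb8 was found in few cells. The lowest values with B2m (b1 of day 0) and Col1a1 (b2 of day 1) are moderate, and both genes of each pair were found in most cells there. All of them describe cells that share a library preparation.

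Psmb8, the immunoproteasome counterpart of Psmb5, was present in few cells at any time. It was detected in 37 of 461 cells: 3 of 20 and 4 of 54 on day 0, 7 of 58 on day 1, 6 of 61 and 5 of 58 on day 3, 6 of 59 on day 4, 4 of 79 on day 5 and 1 of 65 on day 7 in the tested sets, and 1 of the 5 cells of b1 on day 5. The set means were 3.77 TPM in b1 and 2.18 in b2 on day 0, 4.46 on day 1, 9.78 in b1 and 10.2 in b2 on day 3, 6.01 on day 4, 11.2 on day 5 and 0.307 on day 7. The day 3 sets both lay above the day 0 sets, and the day 7 mean rests on 1 cell. In the sets of days 0 to 5, the single highest cell held 44.9 to 74.5% of the Psmb8 counts of its set, and the highest cell of all reached 502 TPM on day 5. As a share of Psmb8 plus Psmb5 TPM it was 0.0533 to 2.16%. The log2 fold changes were 1.94 ± 1.51 on day 3 (adjusted p = 0.708), 2.19 ± 1.72 on day 5 (adjusted p = 0.684) and -3.43 ± 2.15 on day 7 (adjusted p = 0.462, edgeR). On mean log2(TPM + 1) per cell, which weights cells equally, the day 3 and day 5 values were close to 0 (-0.0019) and -0.15, so the sign depends on the weighting. DESeq2 gave -3.39 for day 7, with an adjusted p of 0.00346.

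Psmb9, the counterpart of Psmb6, was found in 10 of 461 cells, with 0 to 178 counts per tested set. Its set means ran from 0 to 1.26 TPM, and 1 cell each held all counts of b2 on days 0 and 7, the sets with the highest means. Psmb8 and Psmb9 are neighbours in the MHC region (chr17:34197721-34201454 and chr17:34181987-34187764, GENCODE vM21 on GRCm38), and Psmb10 lies apart at chr8:105935735-105938444. The 2 MHC genes were detected together in 4 cells. Of the 37 cells with Psmb8, 31 also had Psmb10, which was found in 381 of all 461 cells (82.6%).

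Psma8, the testis alpha subunit, was rare before day 7. Its counts per set were 6 in b1 and 0 in b2 on day 0, 82 on day 1, 76 in b1 and 0 in b2 on day 3, 72 on day 4, 511 on day 5 and 1309 on day 7. It was found in 21 of 65 cells on day 7 (32.3%, exact 95% interval 21.2 to 45.1%), in 5 of 79 on day 5 (6.33%) and in 1 of 20 and 0 of 54 on day 0, where a count of 0, taken as up to 3 cells of 54, allows a share of up to 5.56%. After thinning, the day 7 share was 26.2% and the day 5 share 6.33%. The level stayed low: the day 7 mean was 6.13 TPM, against 865 for Psma7, and no cell exceeded 91.8 TPM. The fitted log2 fold change was 5.75 ± 2.83 on day 5 (adjusted p = 0.332) and 6.94 ± 2.95 on day 7 (adjusted p = 0.169, edgeR), and with 6 counts on day 0 its size depends on the prior count. Leaving out 1 set gave 4.65 to 11.7 on day 5 and 5.84 to 12.9 on day 7, both highest without b1 of day 0. The day 7 call was made by limma on log2(TPM + 1) (adjusted p = 0.0388) and by edgeR without the highest cell of each gene and set (adjusted p = 0.0256).

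Psmb11, the thymus beta subunit, stayed at or below 1.37 TPM in every tested set and was detected in 50 of 461 cells, 41 of them in 3 sets: b1 of day 0 (5 of 20), b1 of day 3 (19 of 61) and day 4 (17 of 59). The b2 sets had it in 0 of 54, 3 of 58, 2 of 58, 1 of 79 and 1 of 65 cells. Psmb11 lies next to Psmb5 on chromosome 14, and the levels of the neighbours did not run in parallel: Psmb5 was highest on day 5, when Psmb11 was in 1 of 79 cells.

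**Figure D5:**
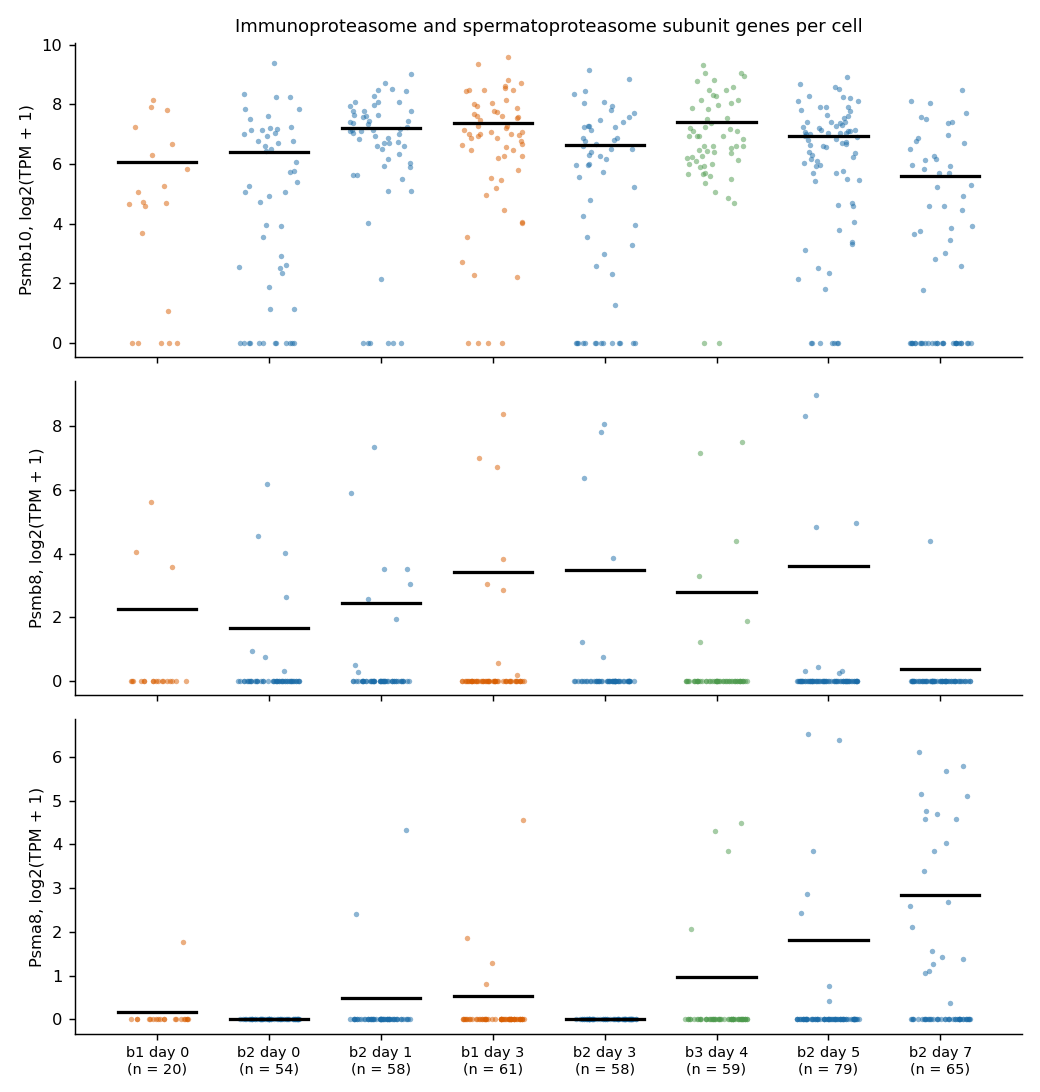
Level of Psmb10, Psmb8 and Psma8 in each cell as log2(TPM + 1) for the 8 sets, with the log2(mean TPM + 1) of the set as a bar. Psmb10 is spread over most cells until day 5, Psmb8 sits in 1 to 7 cells a set by the detection threshold, and Psma8 is in 21 of 65 cells on day 7.

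Day 7 against day 5, both of b2, was compared after the values above had been seen. None of the 39 members was called by edgeR, against 0.554% of all genes. The 2 members with an unadjusted p under 0.05, a share near the 4.2% of all genes, were Psmb10 at -1.85 ± 0.81 (adjusted p = 0.862) and Psmb8 at -5.61 ± 2.51 (adjusted p = 0.917). DESeq2 called Psmb8 alone (-5.55, adjusted p = 4.6e-05, against 2.93% of genes) and limma called 0 members (0.0%). The Psmb8 counts of day 5 came from 4 detected cells and those of day 7 from 1. The constitutive members had a median of 0.01 in this comparison.

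Between prefixes, b2 against b1 over days 0 and 3, edgeR called 0 members and 0.0% of 17827 genes, DESeq2 called 0 members and 3.43% of genes, and limma was not run for it. At an unadjusted p under 0.05, 1 member (Psma8, -7.89 ± 3.14, adjusted p close to 1) and 821 genes (4.61%) were found. Of the 34 constitutive members, 32 were higher in b2, as were 2963 of the 4857 genes as abundant and 9313 of all 17827 genes. The median log2 difference of the 34 was 0.25, against 0.11 for the genes as abundant. Prefix b2 also had the higher summed level on both days.

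The other genes of the pathway were taken from 6 lists. None of the 5 genes for proteasome activators and an inhibitor (Psme1 to Psme4 and Psmf1), the 5 tested 20S assembly chaperones or the 9 tested genes of other proteasome-bound proteins passed the edgeR test on any day. Of 7 genes for transcription factors of proteasome genes and enzymes that activate them, Mafg, a small Maf partner of Nfe2l1 and Nfe2l2, rose on day 3 (1.61 ± 0.50, adjusted p = 0.0408) and day 7 (1.82 ± 0.57, adjusted p = 0.0265). It was at 47 CPM in b1 and 20.2 in b2 on day 0, 49.7 on day 1, 72 in b1 and 132 in b2 on day 3, 54.4 on day 4, 83 on day 5 and 118 on day 7, and both day 3 sets lay above both day 0 sets. Nfe2l1, the factor that restores proteasome genes when the proteasome is impaired, was at 49.6 CPM in b1 and 58.1 in b2 on day 0, 68.6 on day 1, 61.9 in b1 and 79.7 in b2 on day 3, 47.5 on day 4, 67.3 on day 5 and 146 on day 7. Its day 7 value was the highest of the 8 sets, and the log2 fold change of 1.44 ± 0.57 did not pass (adjusted p = 0.123); it was named after its values were seen.

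Of the 10 genes of class I antigen presentation, only B2m was called lower, on days 5 and 7. Of all 22378 genes tested, 487 and 683 were called lower on those days. Log2 fold changes of the 10 were below 0 for 6 and above 0 for 4 on day 5 (median -0.89). On day 7 they were below 0 for 9 and above 0 for 1 (median -1.37). B2m, the invariant light chain of MHC class I, was at 579.8 CPM in b1 and 818 in b2 on day 0, 668 on day 1, 360.3 in b1 and 420.4 in b2 on day 3, 285 on day 4, 137 on day 5 and 49.3 on day 7. Both later b2 sets lay below every earlier set, and the log2 fold change was -2.35 ± 0.52 on day 5 (adjusted p = 0.000357) and -3.83 ± 0.57 on day 7 (adjusted p = 2.23e-09). Psmb10 and B2m were thus both at their lowest on day 7, but on day 5 Psmb10 was above its day 0 level and B2m below. Of 12 interferon response genes, 1 was called lower on day 1 and 1 on day 3. Called lower were 2 on day 4, 2 on day 5 and 3 on day 7, and none was called higher. Of all 22378 genes tested, 56, 233, 216, 487 and 683 were called lower on these 5 days. Log2 fold changes of the 12 were below 0 for 10, 7, 9, 9 and 8 genes, and above 0 for 2, 5, 3, 3 and 4. The called genes were Cxcl10, Ifit1 and Ifit3, whose day 0 counts came largely from b2. Cxcl10 had 0 CPM in b1 and 108 in b2 on day 0, and Ifit1 0.018 and 66.7. Psmb8 had its higher day 0 mean in b1, with 3.77 and 2.18 TPM.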

How the data were processed

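The deposited tables hold RSEM expected counts and TPM for 31673 genes in 461 cells, and RSEM 1.2.22 and bcl2fastq are named in the submitters' processing notes. For aligner, genome build and annotation: not given in the sources used here. The deposited TPM values sum to 994110 to 999272 per cell, and 9.11% of the deposited expected counts were not whole. Within each set the expected counts of its cells were added and then rounded, and the 8 sets of 10 or more cells (58.4 to 209 M counts each) were tested with edgeR 4.0.16 in R 4.3.3 (TMM, filterByExpr by day, quasi-likelihood F test with day as a term, 2 residual degrees of freedom). Days 1, 4, 5 and 7 have 1 set, which is assumed to vary like the others. The estimated prior degrees of freedom of this fit were infinite. The spread behind its tests was therefore taken from the trend over all genes, and not from each member's own sets. The prefix test used the 4 sums of days 0 and 3 with a day term (1 residual and 6.43 prior degrees of freedom). P-values were adjusted by Benjamini and Hochberg over all genes tested, and all 39 members passed the filter. The labels do not say that sets come from separate animals or cultures. The p-values thus rest on a spread between sets that is pooled over genes and may be technical.

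Levels are set means of TPM, and detection is a TPM of 1 or more, with exact (Clopper-Pearson) 95% intervals. Intervals cover counting error only, since reads without molecular identifiers are not independent molecules. Alternatives were DESeq2 1.42.0, RLE factors, no filter, limma 3.58.1 on mean log2(TPM + 1) or log2(TPM + 0.1), thinning to 300000 counts, all 10 sums, a replicate block, and leaving out sets or the highest cells. Promoters came from a RefSeq table (GRCm38.p6). The members and the gene lists were chosen with earlier results of these data known. The rule for named genes took the catalytic, immunoproteasome and tissue-restricted members and Psmd11, other members with an adjusted p under 0.05, the 2 highest and 2 lowest by TPM on day 0, and from each other list up to 4 genes that passed and 2 that did not. Genes named outside it are marked as chosen after their values were seen. The statistics were tested on simulated data, where few genes with small changes were recovered, so a count of 0 called members does not show that the members were level.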

Additional observations from a re-analysis of the deposited data

Results flagged for a closer look

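Mean TPM of 17 constitutive members went in opposite directions from day 0 to day 3 in b1 and b2, as it did for 33% of all genes tested and 36% of the genes as abundant. Of these, 15 were higher on day 3 in b1 and lower in b2. The ratios of day 3 to day 0 in b1 and in b2 were, among core subunits, 1.191 and 0.7761 for Psma4, 1.099 and 0.8893 for Psma5, 1.037 and 0.6672 for Psmb3, 1.254 and 0.9551 for Psmb4, 1.152 and 0.8822 for Psmb5 and 1.623 and 0.7112 for Psmb7. Among ATPases they were 1.244 and 0.648 for Psmc2, 1.063 and 0.7527 for Psmc3 and 1.165 and 0.877 for Psmc5. Among the other genes of the 19S particle they were 1.037 and 0.7096 for Psmd4, 1.096 and 0.7185 for Psmd6, 1.023 and 0.8755 for Psmd7, 1.088 and 0.9703 for Psmd9, 1.003 and 0.7035 for Psmd10 and 1.24 and 0.9713 for Psmd12. The other 2 ran the opposite way, Psmd2 with 0.9622 and 1.574 and Psmd5 with 0.8668 and 1.004. Psmb9 also differed in direction, but was at 0 in b1 on day 0 and has no ratio. Each prefix has 1 set per day, so the difference between prefixes was not tested.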

How the results depend on the processing

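Depth and set number limit these results. The main fit over days has 2 residual degrees of freedom and takes its spread from all genes, and Psmb8, Psmb9 and Psma8 rest on few cells. The count of 0 called members became 1 on day 7 with DESeq2 (Psmb8), with limma at either pseudocount or without its filter, and without the highest cell of each gene and set (Psma8 in those 4), and 1 for day 7 against day 5 with DESeq2 (Psmb8). Leaving out 1 set gave 0 to 2 called members on day 3 and 0 to 2 on day 4, the 2 without b1 of day 0. The constitutive median of day 4, -0.63, was -0.12 with limma, -0.10 with a pseudocount of 0.1 and -0.12 without the filter; the cause was not tested. With limma Psmb8 was -0.0019 on day 3 (-0.081 with the smaller pseudocount, -0.0019 without the filter) and -0.15 on day 5 (-0.33 and -0.15), Psmb5 was 0.27 on day 7 in all 3 limma fits, and Psmb7 was 0.14, 0.13 and 0.14. Leaving out 1 set gave ranges that cross 0 on day 3 of -0.59 to 0.14 for Psmb5, -0.48 to 0.35 for Psmb7 (0.10 without b2 of day 3) and -0.057 to 0.89 for Psmb10, and on day 7 of -0.43 to 0.30 for Psmb5, -0.11 to 0.56 for Psmb6 and -0.46 to 0.37 for Psmb7.

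The median over cells of the Psmb10 share was 11.7% on day 0, 24.7% on day 3, 36.2% on day 4 and 1.964% on day 7. For Psmb8 the median over cells was 0% on days 0, 1, 3, 4 and 5, and with the top cell of every set left out the share was 0.255%, 0.273%, 1.03%, 0.69% and 0.608% on those days. For Psmb9 both alternatives gave 0% on days 0 and 7. At a TPM of 10 or more, Psmb10 was in 62.96% of b2 cells on day 0 and 82.3% on day 5, and Psma8 in 16.9% on day 7. Of 1026 alternative log2 fold changes of 12 members in 7 comparisons, 917 kept sign and call, 99 changed sign and 10 became significant. With the prefix as a replicate block, 0 members were called in every comparison with day 0, and the constitutive medians of days 3 and 4 were -0.41 and -0.78. The b1 deviations of days 0 and 3 had r = 0.125 over 5142 genes, from 2 pairs. The prefix test could not be repeated without a set, since no residual degree of freedom would be left.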

Other observations

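The 5 cells of b1 on day 5 and the 2 of b1 on day 7 entered no comparison with a test of their own. Their summed TPM over the 34 constitutive members averaged 12847 and 10124. Psmb8 was found in 1 of the 5 and 0 of the 2 cells, and Psmb9 in none of the 7. Psma8 was found in 1 of the 5 and 1 of the 2 cells, and Psmb11 likewise in 1 of each.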
